A study of Xenopus laevis with 12 samples.

Results

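The zic genes are the subject here: all probe sets of the array whose annotated gene symbol is zic followed by a digit. There were 7 such probe sets among 15491, and they stand for 5 genes: zic2.L (1 probe set), zic2.S (2), zic1.S (2), zic4.L (1) and zic5.S (1). Xenopus laevis is an allotetraploid frog, and a symbol ends in .L or .S by whether the gene copy lies on a long or a short chromosome. Where a gene had 2 probe sets they are told apart by the ends of their names, S1 and S2: Xl.2237.1.S1_at and Xl.2237.1.S2_at for zic2.S, and Xl.1796.1.S1_at and Xl.1796.1.S2_at for zic1.S. Probes can cross-hybridise between copies and between zic genes, which share a conserved zinc finger region.

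RNA came from animal caps, explants of prospective ectoderm, on 12 one-colour Affymetrix arrays. The 4 groups of 3 arrays each were Geminin-injected explants at stage 10.5 (early gastrula), uninjected explants at stage 10.5, Geminin-injected explants at stage 12 (late gastrula) and uninjected explants at stage 12. The injected RNA encoded Xenopus Geminin in a form whose name marks the removal of its coil, at 300 pg, placed in the animal side of both cells of 2-cell pigmented embryos obtained by in vitro fertilisation, and 80 explants were pooled per sample and kept in 0.7x MMR at 25 °C. The controls received no injection, so any effect of injecting RNA as such is part of each injected against uninjected difference. Per the series' design text, injected and uninjected samples were paired and the experiment was repeated 3 times per stage. A pair below means the injected and the uninjected array of 1 experiment. In bulk samples, fewer cells of a type and less RNA per cell cannot be told apart.

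Zic proteins are transcription factors with a run of C2H2 zinc fingers related to those of the Gli factors. In vertebrate embryos they are among the first genes switched on in ectoderm that is directed to neural fate by blocking BMP signals. In Xenopus, Zic1 acts with Pax3 at the border of the neural plate, where it takes part in the choice of neural crest and placode fates, while Zic2 RNA is present in the egg and is found widely in the gastrula ectoderm. The genes lie in neighbouring pairs: in RefSeq's table for the assembly Xenopus_laevis_v10.1 zic2 is followed directly by zic5 and zic4 by zic1, in both the .L and the .S copies. Geminin holds back the licensing of DNA replication and has a known role in neural fate acquisition.

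The libraries were checked before the zic values were read. Median deposited intensity per array lay between 49.05 and 145.68, with both stage 10.5 arrays of experiment 2 brightest. The deposited gmnn.L intensity was 3203 to 13754 on the 6 injected arrays and 116 to 375 on 5 of the 6 uninjected arrays. On the array labelled uninjected, stage 12, experiment 3, it was 4576. The other copy, gmnn.S, read 49.9, 261 and 250 on the uninjected stage 12 arrays of experiments 1, 2 and 3. It read 145, 513 and 510 on their injected partners. The description of the array titled uninjected, stage 12, experiment 2 names stage 10.5, but it was grouped by its title and stage label. At stage 12 the arrays of experiments 2 and 3 correlated at 0.985 in injected and 0.990 in uninjected explants. Of 12 listed markers of ectoderm and epidermis 11 passed the filter on low signal, against 4 of 8 of neural ectoderm, 6 of 12 of mesoderm and 5 of 15 of endoderm. The neural ectoderm markers ncam1.L, ncam1.S, foxd4l1.1.S and foxd4l1.2.L did not pass it.

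Levels and changes are on the scale of quantile-normalised log2(intensity + 16), which understates the change of dim genes. A probe set entered the tests if its mean over the 12 arrays was above 5.26, the lowest 25% being left out. Of the 7 zic probe sets, 5 were tested among 11618, and those of zic4.L and zic5.S were not. Tests are from limma with the pair as a block, adjusted by Benjamini-Hochberg over all 11618 probe sets, with a threshold of 0.05. The SEs come from the same fits, in which both stages share 1 spread for each probe set. For all 5 tested zic probe sets the SD of the pair changes was larger at stage 12 than at stage 10.5. The shared SE and its p can therefore understate the uncertainty at stage 12. The members were listed by symbol, but that zic genes differ in direction was known from earlier results of these data, so the split between them is a description.

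zic2.L (Xl.1085.1.S1_at) was higher in Geminin-injected explants at both stages. At stage 10.5 its deposited intensity was 1011, 1503 and 674 on the injected arrays of experiments 1, 2 and 3, and 571, 883 and 422 on their uninjected partners. The injected arrays of stage 12 read 243, 351 and 201, and their uninjected partners read 26.3, 77.8 and 92.1. On the normalised log2 scale the groups averaged 10.003 ± 0.37 in injected and 9.16 ± 0.31 in uninjected explants at stage 10.5, and 8.28 ± 0.45 in injected and 6.34 ± 0.52 in uninjected explants at stage 12 (SD, n = 3 each). None of the 4 groups overlapped another, and each injected array lay above every uninjected array of its stage. The share of all probe sets without overlap is not given, so overlap of zic groups here and below only describes the arrays.

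The change of zic2.L within pairs at stage 10.5 was 0.89, 0.90 and 0.74 on the log2 scale. In limma's paired fit it was 0.84 ± 0.24 (SE, n = 3 pairs), 1.79-fold, with an adjusted p of 0.0495. This call lay at the threshold: it was lost in 9 of 11 alternatives, whose limma adjusted p ranged from 0.019 to 0.311, while its size stayed between 0.74 and 0.90. Without the pair as a block the adjusted p was 0.311, and without the pair of experiment 1, 2 or 3 it was 0.235, 0.25 and 0.134. At stage 12 the within-pair changes were 2.79, 1.96 and 1.05, and zic2.L rose by 1.93 ± 0.24 (SE, n = 3 pairs), 3.82-fold (limma adjusted p = 0.000178). All 14 alternatives kept this call, but none of them fitted the stage 12 pairs alone. The SD of the pair changes was 0.09 at stage 10.5 and 0.87 at stage 12, while the fit gave both stages the same SE. The smallest stage 12 pair of zic2.L was that of experiment 3, whose uninjected array carried the gmnn.L signal of 4576. Without that pair the change was 2.37. Without the block and without that array alone, the change was 2.11 (limma adjusted p = 0.0055). The zic2.L change at stage 12 was thus no smaller without that library.

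**Figure D1:**
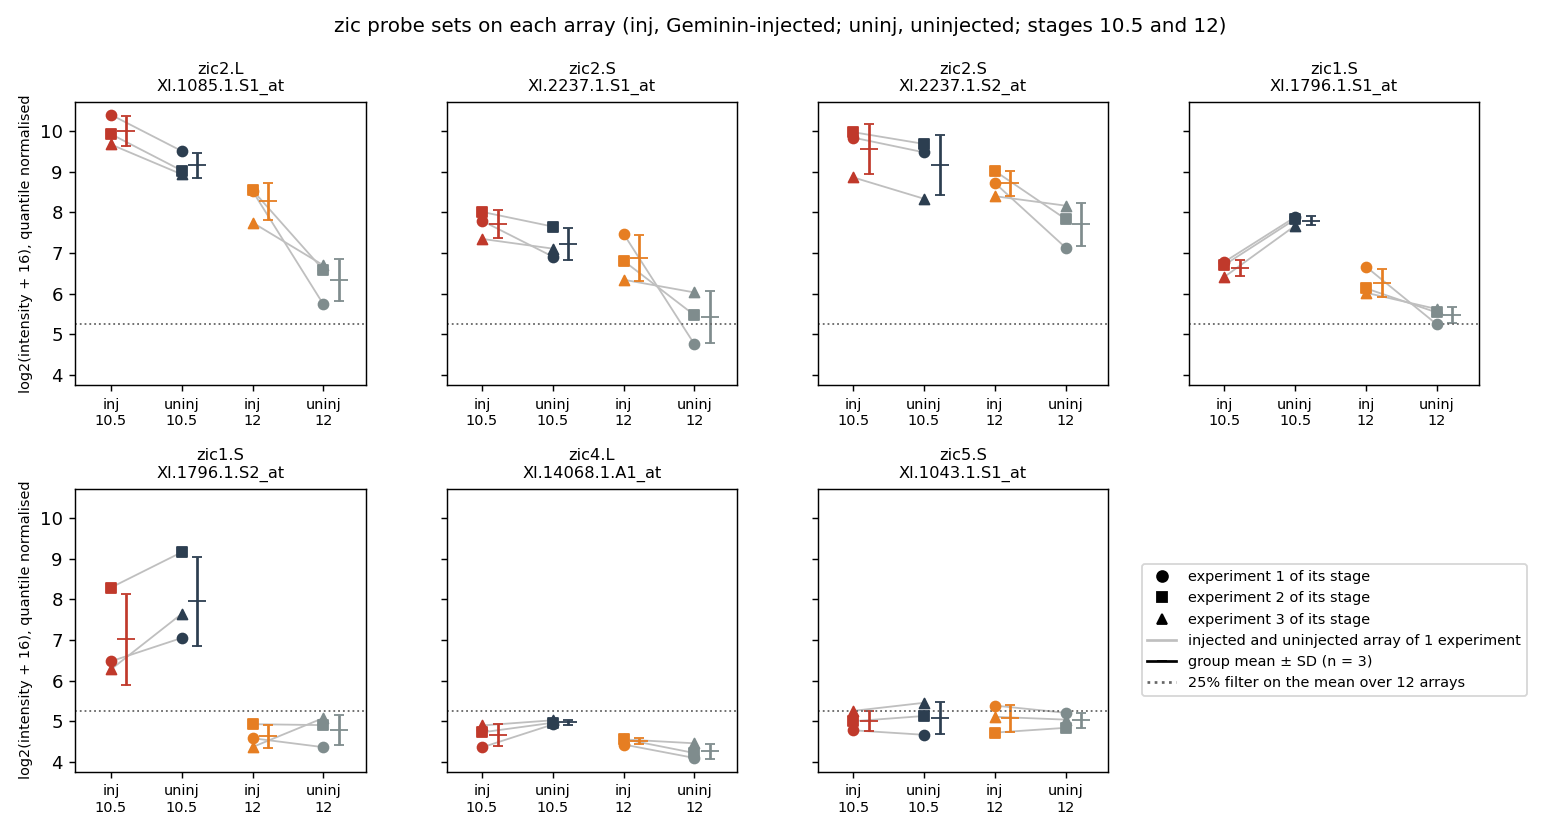
Normalised log2(intensity + 16) of the 7 zic probe sets on each of the 12 arrays, with Geminin-injected (inj) left of uninjected (uninj) explants at stage 10.5 and at stage 12. Marker shapes are the experiments of a stage, grey lines join the arrays of a pair, bars are the mean ± SD of 3 arrays, and the dotted line is the filter at 5.26. zic2.L is above its uninjected partner in every pair, the S1 probe set of zic1.S is below it at stage 10.5 and above it at stage 12, and zic4.L and zic5.S lie around or under the dotted line.

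zic2.S, the short-chromosome copy of zic2, was read by 2 probe sets that gave the same direction. At stage 10.5 the S1 probe set read 177, 431 and 131 on the injected arrays, and 97.9, 337 and 112 on the uninjected ones. At stage 12 it read 106, 93.2 and 66.5 on the injected arrays, and 8.30, 33.0 and 53.6 on the uninjected ones. The S1 signal was thus low in uninjected explants at stage 12, above all in experiment 1. The S2 probe set was brighter, with 709, 1546 and 391.97 on the injected arrays of stage 10.5 and 559, 1328 and 278 on the uninjected ones. Its injected arrays at stage 12 read 289, 496 and 334, and the uninjected ones 81.9, 211 and 286. On the normalised scale the groups overlapped at stage 10.5 and did not at stage 12 for both probe sets. Injected explants at stage 12 overlapped uninjected explants at stage 10.5 for both. Without the share over all probe sets this too is only a description.

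At stage 10.5 neither zic2.S probe set passed. The S1 change was 0.49 ± 0.33 (SE, n = 3 pairs; 95% interval -0.24 to 1.22; limma adjusted p = 0.435), and the S2 change was 0.39 ± 0.21 (95% interval -0.06 to 0.85; limma adjusted p = 0.301), although each of the 3 pairs was positive for both. At stage 12 both rose. The S1 probe set rose by 1.46 ± 0.33 (limma adjusted p = 0.00553) and the S2 probe set by 1.00 ± 0.21 (limma adjusted p = 0.0033; 0.122 without the replicate block). Without the block and the uninjected stage 12 array of experiment 2, the limma adjusted p was 0.0559 for S1 and 0.175 for S2. The pairs were uneven, with S1 changes of 2.72, 1.34 and 0.31 (SD 1.21) and S2 changes of 1.59, 1.18 and 0.23 (SD 0.70). The pair of experiment 3 was again the smallest. Without the pair of experiment 1 the S1 change was 0.83, and it still passed.

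The 2 copies of zic2 were set against each other within pairs. zic2.L exceeded the S1 probe set of zic2.S by 0.35 ± 0.29 at stage 10.5 and by 0.48 ± 0.36 at stage 12 (mean difference of the log2 changes ± SD, n = 3 pairs). It exceeded the S2 probe set by 0.45 ± 0.21 at stage 10.5 and by 0.93 ± 0.23 at stage 12. The difference was positive in all 3 pairs of each stage for both probe sets, but for S1 it was very small in experiment 1. The S1 differences were 0.01, 0.54 and 0.50 in the pairs of stage 10.5 and 0.07, 0.63 and 0.74 in those of stage 12. Both probe sets read 1 gene and were set against the same zic2.L changes, so they are not separate evidence. With 3 pairs an exact two-sided test cannot go below 0.25, so no test of the copies was made. The sizes at stage 12 depend on the pseudocount. The S1 difference was 0.21 with a pseudocount of 1 and 0.60 with 64, and the S2 difference was 1.12 with 1 and 0.61 with 64. At stage 10.5 the same settings gave 0.32 and 0.41 for S1, and 0.46 and 0.43 for S2.

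zic1.S, the border gene, went the other way at stage 10.5. The S1 probe set had a deposited intensity of 85.2, 165 and 58.0 in injected explants of experiments 1, 2 and 3, against 194, 381 and 173 in uninjected explants. The normalised groups averaged 6.63 ± 0.20 in injected and 7.80 ± 0.11 in uninjected explants (SD, n = 3 each) and did not overlap. The 3 pairs were nearly equal at -1.10, -1.12 and -1.26, and in log2 units zic1.S fell by 1.16 ± 0.20 (SE, n = 3 pairs), 2.24-fold lower (limma adjusted p = 0.00279). All 10 alternatives in which this probe set was tested kept the call.

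At stage 10.5 the S2 probe set of zic1.S read 66.1, 528 and 50.4 on the injected arrays, and 107, 955 and 168 on the uninjected ones. Both arrays of experiment 2 were high, so the groups overlapped and the SD within a group was 1.11 in injected and 1.09 in uninjected explants on the log2 scale, more than the difference between the groups. Within pairs the changes were -0.58, -0.87 and -1.37, and it fell by 0.94 ± 0.21 (SE, n = 3 pairs; limma adjusted p = 0.0154). The call rests on the pairing: without the replicate block the limma adjusted p was 0.714. It was also lost without the pair of experiment 2 (limma adjusted p = 0.104) or 3 (0.141) and with a pseudocount of 1 (0.147).

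At stage 12 the S1 probe set of zic1.S passed and the S2 probe set did not, and their difference was not tested. The S1 probe set had 53.8, 55.3 and 51.2 in injected explants, against 16.5, 35.0 and 38.4 in uninjected explants, with no overlap. It rose by 0.81 ± 0.20 (SE, n = 3 pairs; limma adjusted p = 0.00805), with pairs of 1.42, 0.59 and 0.40 (SD 0.54). Without the pair of experiment 1 the change was 0.50 (limma adjusted p = 0.0358). Without the block and the uninjected array of experiment 2 or 3, its limma adjusted p was 0.0721 or 0.0517. The S2 probe set had 4.27, 17.8 and 6.15 in injected explants, against 3.10, 18.5 and 22.3 in uninjected explants, and its change was -0.16 ± 0.21 (95% interval -0.62 to 0.31; limma adjusted p = 0.586). Without the pair of experiment 3 its change was 0.12. Group means of the S2 probe set at stage 12, 4.62 in injected and 4.78 in uninjected explants, lay close to 4.43, the 5th percentile of all values, so a difference there could be hidden by low signal.

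**Figure D2:**
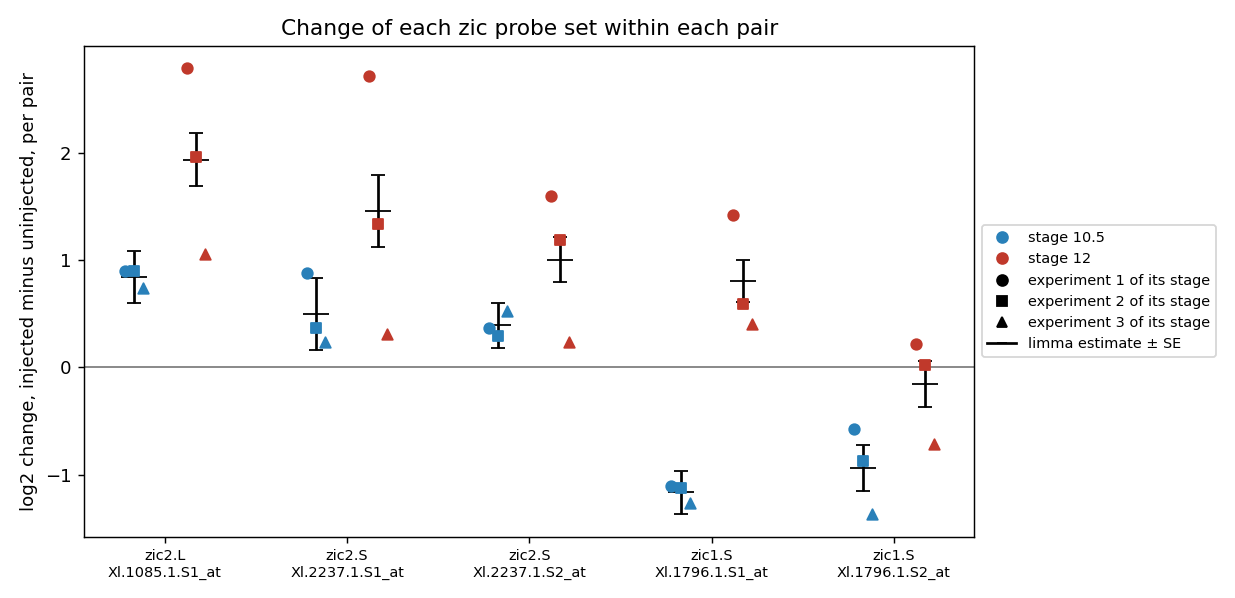
Log2 change (injected minus uninjected) within each of the 3 pairs at stage 10.5 (blue) and stage 12 (red) for the 5 tested zic probe sets, with marker shapes for the experiments of a stage and black bars for limma's estimate ± SE. All pairs of zic2.L and zic2.S are above 0, all stage 10.5 pairs of zic1.S are below 0, and at stage 12 experiment 1 has the largest and experiment 3 the smallest change for each probe set.

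Counted over the family, 2 of the 5 tested zic probe sets were lower at stage 10.5, both of zic1.S, where 7.06% of all tested probe sets were lower. The probe set of zic2.L was higher, where 3.31% of all were higher. At stage 12, 4 of 5 were higher (zic2.L, both of zic2.S and S1 of zic1.S), where 23.5% of all were higher, and 0 of 5 were lower, where 17.6% of all were lower. The median log2 change of the 5 was 0.39 at stage 10.5, beside 0.05 over all probe sets tested, and 1.00 at stage 12, beside 0.09. These 5 probe sets stand for 3 genes, and those of 1 gene share their target.

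The distance between zic2.L and the S1 probe set of zic1.S was steady at the early stage. The change of zic2.L minus that of the S1 probe set of zic1.S was 2.00, 2.02 and 2.00 in the 3 pairs of stage 10.5 and 1.37, 1.37 and 0.65 in those of stage 12. The distance from zic2.L to the S2 probe set of zic1.S was not steady. The stage 10.5 changes of that S2 probe set were -0.58, -0.87 and -1.37, beside 0.89, 0.90 and 0.74 for zic2.L. This distance was thus smallest in experiment 1 and largest in experiment 3. zic2.L and zic1.S were set side by side because of their directions, so no test is given.

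Markers of epidermis and other lineages were summed on the same arrays, and the sums were not tested. A sum is on the linear scale, so its brightest markers weigh most. Over the 12 arrays the epidermal marker krt70.S ranged from 11.85 to 13.20 (log2) and the neural marker sox3.S from 7.68 to 11.04. The summed normalised intensity of the 12 markers of ectoderm and epidermis was 5330 to 8291 in injected and 11043 to 18162 in uninjected explants at stage 10.5, and 13424 to 14956 in injected and 23698 to 30606 in uninjected explants at stage 12. The sum of the 8 neural ectoderm markers was 3268 to 3826 in injected and 3047 to 3788 in uninjected explants at stage 10.5, and 860 to 1373 in injected and 611 to 811 in uninjected explants at stage 12. The sum of the 12 mesoderm markers was 582 to 785 in injected and 399 to 736 in uninjected explants at stage 10.5, and 391 to 510 in injected and 251 to 332 in uninjected explants at stage 12. That of the 15 endoderm markers was 272 to 437 in injected and 230 to 369 in uninjected explants at stage 10.5, and 220 to 359 in injected and 472 to 504 in uninjected explants at stage 12. None of these markers lay below the 5th percentile of all values on all 3 arrays of a group. The mesoderm markers tbxt.S (4.91 to 5.61 over the 12 arrays, log2), myf5.L (4.50 to 5.35) and msgn1.L (4.31 to 4.92) lay near or under the filter at 5.26. Other mesoderm markers that passed it reached higher: vegt.L ranged from 4.62 to 8.73, vegt.S from 5.26 to 7.08 and gsc.L from 5.03 to 7.03. The ranges were 5.01 to 6.51 for myod1.L and 4.96 to 6.16 for eomes.L. At stage 10.5 only the epidermal sums did not overlap between injected and uninjected explants, and at stage 12 none of the 4 sums overlapped. The share of all probe sets without overlap is not given here, so no lineage change is read from this. The shares that follow are of limma calls, which is another measure. By limma 3.31% of all tested probe sets were higher and 7.06% lower at stage 10.5. At stage 12 the shares were 23.5% higher and 17.6% lower. The tested neural ectoderm markers were split at stage 12: sox3.S, sox3.L and sox11.S changed by 1.29, 0.97 and 0.80, and sox2.L by -1.24. The part of these markers in the zic changes was not tested.

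Between stage 10.5 and stage 12, all 5 tested zic probe sets fell in uninjected explants. zic2.L fell by 2.82 ± 0.32 (SE, n = 3 against 3) on the log2 scale, 7.05-fold (limma adjusted p = 7.37e-05), in a fit of the 4 group means without a block. The changes were -2.33 ± 0.22 and -3.17 ± 0.56 for the S1 and S2 probe sets of zic1.S, and -1.81 ± 0.37 and -1.45 ± 0.40 for those of zic2.S, with limma adjusted p of 2.60e-05 to 0.0161. Of all tested probe sets 16.5% were lower. The fall of the S2 probe set of zic2.S was lost in 4 of 16 alternatives, with a limma adjusted p of up to 0.0651. It was lost on the deposited scale and without the uninjected arrays of stage 10.5 experiment 1, of stage 10.5 experiment 2 or of stage 12 experiment 1.

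In injected explants 2 of the 5 fell. zic2.L fell by 1.73 ± 0.32 (SE, n = 3 against 3; limma adjusted p = 0.00381), and its injected level at stage 12, 7.75 to 8.55 over the arrays, stayed below its uninjected level at stage 10.5, 8.94 to 9.51. The S2 probe set of zic1.S fell by 2.39 ± 0.56 (limma adjusted p = 0.0134), a call that was lost with a pseudocount of 64 (0.0506) and without the injected stage 12 array of experiment 3 (0.0577). The other probe sets did not pass: the changes were -0.84 ± 0.37 for S1 and -0.84 ± 0.40 for S2 of zic2.S (limma adjusted p of 0.139 and 0.175), and -0.36 ± 0.22 for S1 of zic1.S (95% interval -0.84 to 0.12; limma adjusted p = 0.303). Of all tested probe sets 8.49% were lower. The stage comparisons depend on scaling. In uninjected explants 1762 probe sets were higher and 1921 lower; the deposited scale gave 493 higher and 882 lower, and median centring 2401 higher and 1458 lower. In injected explants 909 were higher and 986 lower; the deposited scale gave 130 higher and 405 lower, and median centring 1526 higher and 842 lower. The median change of all probe sets was -0.04, -0.23 and 0.12 in uninjected explants under these 3 scalings, and 0.02, -0.20 and 0.14 in injected explants. Every change of a tested zic probe set between the stages was negative under all 3.

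**Figure D3:**
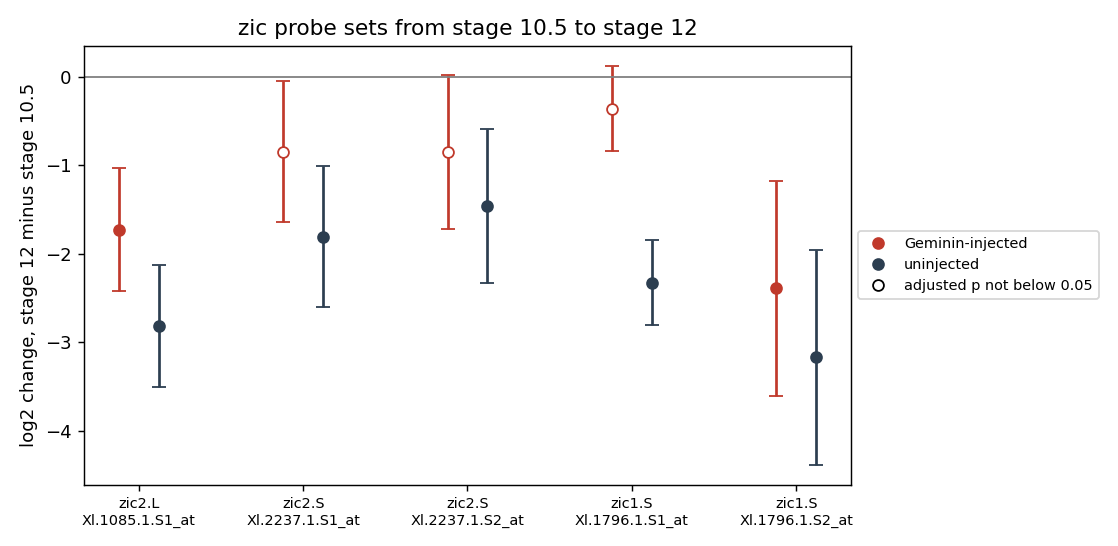
Log2 change from stage 10.5 to stage 12 of the 5 tested zic probe sets in Geminin-injected explants (red, left) and uninjected explants (dark, right), with 95% intervals from limma and open symbols where the adjusted p was not below 0.05. The uninjected estimate lies further below 0 than the injected one for each probe set. This restates that the injected against uninjected change was more positive at stage 12. For the S1 probe set of zic1.S the intervals, -0.84 to 0.12 in injected and -2.81 to -1.84 in uninjected explants, do not overlap. Low stage 12 signal limits the falls of the S2 probe set of zic1.S, which were -3.63 in injected and -4.34 in uninjected explants with a pseudocount of 1.

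Whether the injected against uninjected change differed between stages was tested as an interaction. For the S1 probe set of zic1.S the stage 12 change exceeded the stage 10.5 change by 1.97 ± 0.28 (SE, n = 6 pairs), which passed (limma adjusted p = 0.00352). It was 1 of 5 tested zic probe sets, where 1.80% of all were higher. The S2 probe set gave 0.78 ± 0.30 (limma adjusted p = 0.145). zic2.L gave 1.09 ± 0.35 (95% interval 0.33 to 1.85; limma adjusted p = 0.0886), and the zic2.S probe sets gave 0.96 ± 0.47 and 0.61 ± 0.30 (limma adjusted p of 0.241 and 0.234). All 5 estimates were positive, and a stage difference in the zic2 change was not shown. The S2 probe set of zic1.S was near the bottom of the signal range at stage 12 in both groups (means of 4.62 and 4.78). With its stage 12 change held near 0 by low signal, its fall at stage 10.5 would by itself give a positive estimate. Without the stage 12 pair of experiment 3 all 5 passed, with limma adjusted p of 0.00706 for zic2.L and 0.0451 for the S2 probe set of zic1.S. The limit by low signal holds for that S2 call too. Without the stage 12 pair of experiment 1 only the S1 probe set of zic1.S passed, and the difference was 0.66 for zic2.L (limma adjusted p = 0.179) and 0.33 and 0.32 for the S1 and S2 probe sets of zic2.S (0.598 and 0.54). The zic1.S call was lost in 1 of 16 alternatives, without the block and without the uninjected stage 12 array of experiment 2 (limma adjusted p = 0.0781).

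zic4.L and zic5.S, whose RNAs in Xenopus are found in the neural plate and its border, were near the bottom of the signal range. At stage 10.5 zic4.L (Xl.14068.1.A1_at) read 3.51, 14.1 and 9.03 on the injected arrays, and 11.75, 22.5 and 11.8 on the uninjected ones. At stage 12 it read 2.80, 9.83 and 9.88 on the injected arrays, and 1, 3.89 and 7.79 on the uninjected ones. Its 3 pairs were all negative at stage 10.5 (-0.56, -0.24 and -0.13) and all positive at stage 12 (0.33, 0.34 and 0.10). With no filter, over 15491 probe sets, these changes did not pass (-0.31 ± 0.15 and 0.26 ± 0.15; limma adjusted p of 0.299 and 0.217), nor did their difference of 0.57 ± 0.21 (0.153). zic4.L fell in uninjected explants between stages by 0.71 ± 0.16 in that fit (limma adjusted p = 0.0071), and in injected explants its change was -0.15 ± 0.16 (0.63). zic5.S (Xl.1043.1.S1_at), the neighbour of zic2.S, had 7.50 to 29.1 over all 12 arrays, with overlapping groups. Its changes without a filter were -0.07 ± 0.15 at stage 10.5 and 0.04 ± 0.15 at stage 12 (limma adjusted p of 0.886 and 0.862).

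Other genes of the neural plate were set beside the zic genes. Of 15 tested genes (30 on the array) 6 were lower and 0 higher at stage 10.5 (limma; 7.06% and 3.31% of all probe sets), with a median change of -0.36. At stage 12, 4 were higher and 7 lower (23.5% and 17.6% of all), with a median of -0.56. At stage 10.5 the changes of irx1.L and irx2.L, homeobox genes of the neural plate, were -2.02 ± 0.17 and -1.91 ± 0.17, and that of sox2.L, a factor of neural progenitors, was -1.38 ± 0.16 (limma adjusted p of 5.38e-05 to 0.000296). The early fall of zic1.S had the direction of these genes. sox3.S, a related factor of early neural ectoderm, rose by 1.29 ± 0.20 at stage 12 (limma adjusted p = 0.000568), as zic2.L did. The stage 12 change was -1.24 ± 0.16 for sox2.L and -1.27 ± 0.22 for msi1.S, which encodes a neural RNA-binding protein (limma adjusted p of 0.000223 and 0.00108). Between stages 9 of the 15 were lower and 3 higher at stage 12 in uninjected explants, and 4 were lower and 1 higher in injected explants. Of all probe sets 16.5% were lower in uninjected and 8.49% in injected explants. Of the 11618 tested, 1762 were higher in uninjected and 909 in injected explants.

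At the border of the neural plate and in the neural crest, 12 of 19 tested genes (28 on the array) were lower and 1 higher at stage 10.5, and 15 were lower and 0 higher at stage 12 (limma; the 4 others of stage 12 were ets1.L, klf17.L, prdm1.S and sox9.S, chosen here because they did not pass). Of all probe sets 7.06% were lower and 3.31% higher at stage 10.5, and 17.6% lower and 23.5% higher at stage 12. The medians of the list were -0.99 and -0.95. pax3.L, the partner of Zic1 at the border, fell by 1.17 ± 0.16 at stage 10.5 and by 1.44 ± 0.16 at stage 12 (limma adjusted p of 0.000737 and 9.04e-05). Other probe sets of pax3.L gave 0.27 and -1.18 at stage 10.5, and -0.21 and -1.21 at stage 12. msx1.S, a BMP-responsive homeobox gene of the border, fell by 2.00 ± 0.17 at stage 12. tfap2a.L, a factor of epidermis and border, fell by 1.48 ± 0.15 at stage 10.5, and prdm1.S fell by 2.09 ± 0.22, with -1.71 and -2.23 on its other probe sets. While the S1 probe set of zic1.S rose at stage 12, 0 of these 19 genes did. The S2 probe set of zic1.S did not rise either, with a change of -0.16 (limma adjusted p = 0.586).

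**Figure D4:**
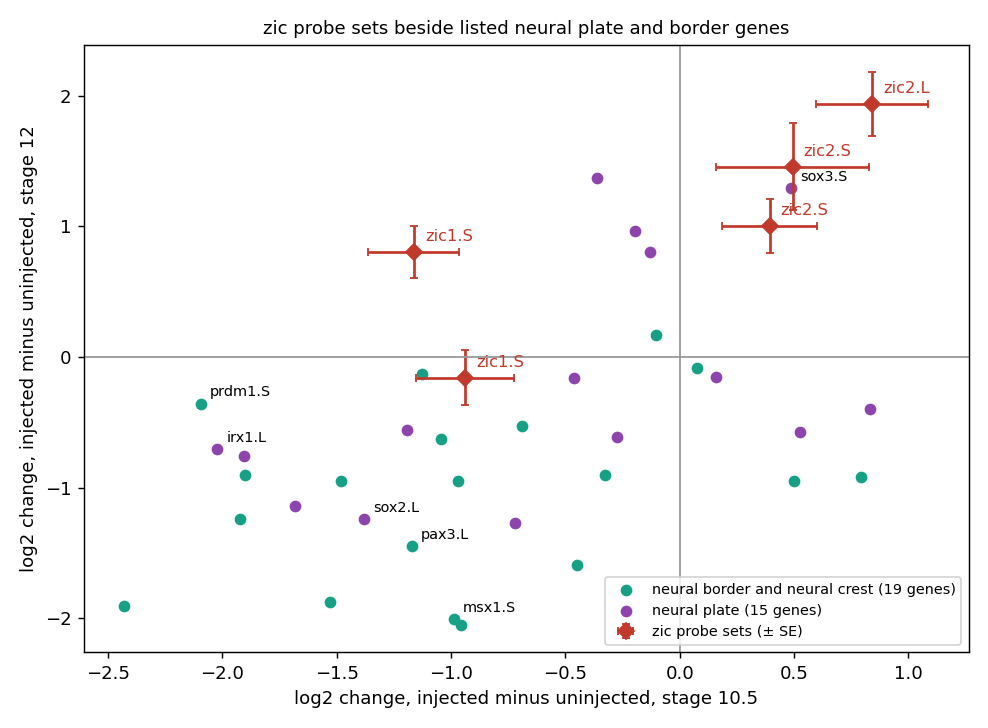
Log2 change (injected minus uninjected) at stage 10.5 on the horizontal axis and at stage 12 on the vertical axis for the 5 tested zic probe sets (red, ± SE), 15 neural plate genes (purple) and 19 genes of the neural border and crest (green). The zic2 probe sets lie at the upper right near sox3.S, those of zic1.S lie at the left and above most border genes, and most border genes are negative on both axes.

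Upstream of zic genes, a list of BMP and FGF signals and their regulators (28 on the array) had 8 of 18 tested genes lower and 2 higher at stage 10.5, and 10 lower and 4 higher at stage 12, with medians of -0.24 and -0.90. The shares over all probe sets were 7.06% lower and 3.31% higher at stage 10.5, and 17.6% lower and 23.5% higher at stage 12, so the 4 higher genes are near the background. szl.L, a secreted regulator of BMP signals, fell by 2.83 ± 0.24 at stage 10.5 and by 1.58 ± 0.24 at stage 12, and bambi.L, a BMP pseudoreceptor gene, fell by 1.69 ± 0.18 at stage 10.5. fgfr4.S, an FGF receptor gene, fell by 1.60 ± 0.16 at stage 10.5 and by 1.07 ± 0.16 at stage 12. The 2 higher genes of stage 10.5, named because they went the other way, were the copies of the BMP ligand gene bmp2. bmp2.L rose by 0.96 ± 0.18 at stage 10.5 and 0.73 ± 0.18 at stage 12 (limma adjusted p of 0.0053 and 0.00858). bmp2.S rose by 0.64 ± 0.15 and 0.52 ± 0.15 (limma adjusted p of 0.0212 and 0.0202). The BMP ligand gene bmp4.S was lower at both stages. Its changes were -1.57 ± 0.25 at stage 10.5 and -1.16 ± 0.25 at stage 12 (limma adjusted p of 0.00163 and 0.00381). At stage 12 the change was -1.498 ± 0.20 for smad7.L, an inhibitory Smad gene, and -1.63 ± 0.24 for smad9.S, which encodes a BMP signal transducer. Of 4 tested genes of Gli factors and Hedgehog transducers 0 passed at either stage by limma. At stage 10.5 their changes ran from -0.52 ± 0.20 for smo.L (limma adjusted p = 0.132) to 0.18 ± 0.28 for ptch1.S. At stage 12 they ran from -0.19 ± 0.20 for smo.L to 0.61 ± 0.28 for ptch1.S (limma adjusted p = 0.0984). On the deposited scale and with median centring 1 of these 4 was lower at stage 10.5.

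A list of genes named from general knowledge as lying downstream of Zic factors in Xenopus had 26 members on the array and 7 tested. At stage 10.5, 3 were lower and 0 higher, and at stage 12, 3 were higher and 2 lower, beside 7.06% lower and 3.31% higher over all probe sets at stage 10.5 and 23.5% higher and 17.6% lower at stage 12. cyp26a1.S, which encodes an enzyme that breaks down retinoic acid, fell by 1.28 ± 0.20 at stage 10.5 and rose by 0.80 ± 0.20 at stage 12, with a difference of 2.08 (limma adjusted p = 0.00322), the same signs as the S1 probe set of zic1.S. The other copy, cyp26a1.L, had changes of -0.28 ± 0.18 (limma adjusted p = 0.42) and 0.64 ± 0.18 (0.0167). Its difference of 0.92 did not pass (limma adjusted p = 0.0621). lhx5.S, a homeobox gene of the anterior neural plate, fell at both stages, with changes of -1.68 ± 0.23 and -1.14 ± 0.23. Another probe set of lhx5.S gave -1.37 and -0.61, the second not past the threshold. aldh1a2.L, which makes retinoic acid, had changes of 0.51 ± 0.24 (limma adjusted p = 0.245) at stage 10.5 and 0.74 ± 0.24 (0.0297) at stage 12. Another probe set of aldh1a2.L gave 0.15 and 0.08. This list shares pax3.L with the border list and lhx5.S with the neural plate list.

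The genes whose levels ran most like a zic probe set were taken by Pearson correlation over the 12 arrays, among 6006 named genes of other families. The arrays share experiments and stages, so r is a description. For zic2.L they were cenpl.S (r = 0.993), a kinetochore protein gene, ppp1r13l.L (0.992), cd276.S (0.987), prrg1.S (0.985) and ethe1.L (0.983). cenpl.S averaged 9.58 in injected and 9.02 in uninjected explants at stage 10.5 and 8.39 in injected and 7.31 in uninjected explants at stage 12. For the S1 probe set of zic1.S they were jag1.L (0.944), a Notch ligand gene, kmt5a.L (0.923), a histone methyltransferase gene, ackr3.L (0.920), a chemokine receptor gene, gprc5cl2.S (0.902) and pdk4.S (0.879). jag1.L averaged 6.46 in injected and 7.43 in uninjected explants at stage 10.5 and 5.81 in injected and 5.29 in uninjected explants at stage 12, the order of the S1 probe set of zic1.S. For the S2 probe set of zic1.S the first was hnrnpa2b1.L (0.960), and for the zic2.S probe sets cisd2.L (0.978 with S1) and hikeshi.L (0.953 with S2). With Spearman's correlation 2 of 5 genes of zic2.L and 2 of 5 of the S1 probe set of zic1.S were the same, and on the deposited scale 4 and 3 were. For the S1 probe set of zic2.S 3 of 5 were the same under either setting, and for the S2 probe sets of zic1.S and zic2.S 1 of 5 was. Among the zic probe sets, zic2.L correlated at 0.934 and 0.901 with those of zic2.S and at 0.735 and 0.657 with those of zic1.S, while the 2 probe sets of zic1.S correlated at 0.800.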

How the data were processed

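The authors deposited 1 intensity per probe set and array in linear units. How probes were summarised, corrected and scaled is not stated in the sources used here. Per the series' design text, injection, extraction and hybridisation were done anew for each experiment. The number of arrays limits the precision. Probe symbols came from the platform annotation, in which 9304 probe sets had 1 symbol, 195 had several and 5992 had none. Symbols were updated through gene identifiers (9227 matched, 2 symbols changed).

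From these values log2(intensity + 16) was quantile normalised, the lowest 25% of mean signal (3873 probe sets) was left out, and limma 3.58.1 in R 4.3.3 (lmFit, eBayes with an intensity trend) was fitted to all 12 arrays. Injected against uninjected fits had the experiment within a stage as a block (4 residual degrees of freedom), and stages were compared without one (8). Same-numbered arrays deviated together from their group means, at 0.765 to 0.797 at stage 10.5 and 0.424 to 0.693 at stage 12, and at stage 12 experiments 2 and 3 also did across numbers (0.497 and 0.555). The stage fit treats the arrays of a pair as independent. Its 8 residual degrees of freedom can thus be too many, and its p values too small. The fit was checked on simulated data.

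All zic probe sets are named, with up to 4 genes per list by smallest p, the 5 genes most like each zic probe set, gmnn, and markers. Some listed genes that did not pass or went the other way are named too, as is bmp4.S beside the bmp2 copies. The members and lists were chosen with earlier results of these data known. A list takes the brightest probe set per gene. Alternatives were the block, scaling, pseudocount, filter, trend and arrays left out.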

Additional observations from a re-analysis of the deposited data

Results flagged for a closer look

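The S1 probe set of zic1.S (Xl.1796.1.S1_at) changed with Geminin in opposite directions at the 2 stages, and the difference of 1.97 on the log2 scale (stage 12 minus stage 10.5) passed limma's interaction test (adjusted p = 0.00352), with 3 of 3 pairs negative at stage 10.5 and 3 of 3 positive at stage 12. The other probe set of zic1.S gave 0.78 (adjusted p = 0.145). Groups of 3 arrays were not screened for outlying samples.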

How the results depend on the processing

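Of the 5 tested zic probe sets 3 passed limma's paired test at stage 10.5, and 1 did so without the replicate block, with a pseudocount of 1 or with the lowest 50% left out, and 1 to 2 without 1 pair. At stage 12, where 4 passed, 2 did so without the block and the uninjected array of experiment 3, and 1 without the block and that of experiment 2. For the difference between stages, where 1 passed, 2 did so with a pseudocount of 64 or with the stage 12 pairs of experiments 2 and 3 averaged into 1, 0 with the lowest 50% left out and 0 without the block and the uninjected stage 12 array of experiment 2, and 1 to 5 without 1 pair. Between stages 3 passed in uninjected explants with the lowest 50% left out (5 in the main fit). In injected explants 1 passed with that filter or a pseudocount of 64 (2 in the main fit), and 1 to 2 without 1 array. The filter on the lowest 50% removes both zic1.S probe sets. The stage 12 change of the S2 probe set of zic1.S ran from -0.35 to 0.12 without 1 pair. A replicate block by experiment number across stages changed no stage call of a zic probe set. Over all probe sets, 1205 passed at stage 10.5, against 262 without the block and 454 to 779 without 1 pair. At stage 12 4781 passed, against 1509 without the block, and 1162 and 967 without the block and the uninjected array of experiment 3 or 2. The difference passed for 670, against 34 without the block, 437 with a pseudocount of 1, 379 with the lowest 50% left out, 183 to 1033 without 1 pair, and 39 and 0 without the block and those arrays. Between stages 3683 passed in uninjected and 1895 in injected explants, against 1375 and 535 on the deposited scale, and 939 to 1237 in injected explants without 1 of 4 arrays. The cause of these differences was not tested. Dim signal limits zic4.L, zic5.S and the stage 12 values of zic1.S.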
